A study of Mus musculus with 13 samples.

Results

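The 31 genes described here make cholesterol and fatty acids or control that synthesis. They were taken from a list of genes driven by the sterol regulatory element-binding proteins (SREBPs), all 31 were found in the deposited count table of 56980 genes, and all 31 were among the 17549 genes that passed the filter on low counts. They fall into 7 enzymes of the mevalonate pathway, 11 enzymes that turn farnesyl diphosphate into cholesterol, 6 regulators of sterol sensing and transport, and 7 enzymes of fatty acid synthesis and desaturation. The data are bulk RNA sequencing counts from 13 hippocampus libraries of male mice aged 9 months.

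All 13 samples carried App NL-G-F, a knock-in that puts familial Alzheimer's disease mutations into the mouse amyloid precursor protein gene, and all carried Lpcat3 f/f, a floxed gene whose enzyme loads arachidonic acid onto phospholipids of membranes. The 7 knockouts also carried vav1-CRE, a transgene that drives Cre in the blood-forming lineage, microglia included, and the 6 controls did not. The labels give tamoxifen by gavage for every sample (20 mg/ml, 0.2 mg per g body weight), and the labels do not say whether recombination depended on it. The tissue was the whole hippocampus, so cells in which vav1-CRE is active were a part of each sample, and fewer cells of a type cannot be told apart from less RNA per cell. The study asks how loss of Lpcat3 in microglia alters their response to amyloid.

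The number at the end of each sample title falls into 3 runs, and no source used here says what sets the runs apart. The run 3283-3288 held 5 knockouts and 1 control, the run 3296-3300 held 1 knockout and 3 controls, and the run 4301-4307 held 1 knockout and 2 controls. Genotype and run are therefore partly joined in this design. Nothing in the labels says that the samples came from separate animals, and p-values then reflect only how far these samples spread, which may be technical.

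Cholesterol in the adult brain is made locally, since lipoproteins of the blood do not cross the blood-brain barrier, and astrocytes and myelinating oligodendrocytes are among its main producers. When sterol in the endoplasmic reticulum is low, SCAP escorts SREBPs to the Golgi for cleavage, and the released factors enter the nucleus and bind sterol regulatory elements of the synthesis genes. When sterol is high, INSIG proteins hold SCAP in place. SREBP-2, from Srebf2, acts mostly on sterol genes, and SREBP-1c, from Srebf1, mostly on fatty acid genes.

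Promoters are shown for the 4 genes that DESeq2 called between the runs and that have an entry in the RefSeq table (build GRCm38.p6), and for Scap, which varied least. Each window is 300 bases, from 250 before to 50 after the annotated start, 5′ to 3′ on the gene's strand. Capitals mark TCACNCCAC, the form of the sterol regulatory element searched for, and CCAAT, the box bound by NF-Y, on either strand (GTGGNGTGA and ATTGG on the other). Hmgcs1 lies at chr13:119690101-119690400 on the plus strand, Insig1 at chr5:28071162-28071461 (plus), Cyp51 at chr5:4104648-4104947 (minus), Acly at chr11:100527951-100528250 (minus) and Scap at chr9:110333106-110333405 (plus).
Hmgcs1: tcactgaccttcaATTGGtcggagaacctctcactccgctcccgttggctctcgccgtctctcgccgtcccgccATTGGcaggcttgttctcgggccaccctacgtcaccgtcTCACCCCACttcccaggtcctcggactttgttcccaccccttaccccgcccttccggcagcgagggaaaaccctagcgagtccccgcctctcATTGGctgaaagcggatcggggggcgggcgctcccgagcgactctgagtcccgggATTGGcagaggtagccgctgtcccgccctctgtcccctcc
Insig1: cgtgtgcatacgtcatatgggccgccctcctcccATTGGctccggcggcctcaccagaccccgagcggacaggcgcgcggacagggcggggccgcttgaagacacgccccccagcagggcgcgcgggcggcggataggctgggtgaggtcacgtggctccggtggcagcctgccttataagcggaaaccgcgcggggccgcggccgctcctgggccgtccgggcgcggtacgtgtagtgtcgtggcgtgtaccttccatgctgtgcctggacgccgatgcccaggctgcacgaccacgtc
Cyp51: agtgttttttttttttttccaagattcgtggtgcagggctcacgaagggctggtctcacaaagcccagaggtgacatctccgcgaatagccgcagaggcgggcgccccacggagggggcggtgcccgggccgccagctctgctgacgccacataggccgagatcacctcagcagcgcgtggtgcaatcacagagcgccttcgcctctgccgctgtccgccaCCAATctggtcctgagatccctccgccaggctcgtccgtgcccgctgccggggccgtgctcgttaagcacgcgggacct
Acly: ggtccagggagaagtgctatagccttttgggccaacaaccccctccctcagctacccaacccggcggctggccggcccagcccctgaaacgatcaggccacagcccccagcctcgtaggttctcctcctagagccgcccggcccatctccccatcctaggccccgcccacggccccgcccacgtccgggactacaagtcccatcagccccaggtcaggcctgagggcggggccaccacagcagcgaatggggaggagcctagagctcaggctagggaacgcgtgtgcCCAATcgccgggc
Scap: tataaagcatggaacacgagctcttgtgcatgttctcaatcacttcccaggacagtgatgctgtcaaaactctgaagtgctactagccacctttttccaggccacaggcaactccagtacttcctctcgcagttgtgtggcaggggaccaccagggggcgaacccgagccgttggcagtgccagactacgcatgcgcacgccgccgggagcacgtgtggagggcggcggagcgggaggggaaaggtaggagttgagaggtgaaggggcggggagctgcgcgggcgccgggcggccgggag

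Hmgcs1 held TCACNCCAC, 137 bases before its start, together with 4 CCAAT boxes. Across the table, TCACNCCAC was in 1.24% of 32851 promoters and in 1 of the 34 promoters of the 25 member genes with an entry. CCAAT was in 37.4% of all promoters and in 22 of the 34 member promoters. The Sp1 motif GGGCGG, with its reverse complement, was in 35.7% of all promoters and in 25 of the 34. The E-box CACGTG was in 7.15% of all promoters and in 6 of the 34. Each motif was searched on its own, on both strands, with overlaps allowed, and a match describes the letters of the window only. Sqle, Fdft1, Fdps, Stard4, Scd1 and Scd2 have no entry.

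Levels of the members spanned a wide range. Scd2, a stearoyl-CoA desaturase that makes oleic acid in the brain, stood highest per length at 331 CPM (counts scaled to library size) per kilobase of exon, averaged over the 13 libraries. Hmgcs1, which makes HMG-CoA, followed at 82.1 CPM per kilobase. Acly, which supplies cytosolic acetyl-CoA, stood at 43.3 CPM per kilobase, and Me1, a source of NADPH for lipid synthesis, at 34.3. The lowest was Fdps, farnesyl diphosphate synthase, at 0.968 CPM per kilobase, with 41 to 79 counts per library. Scap had the smallest spread over the 13 libraries, a coefficient of variation of 4.5% of its CPM, and Fdps, Mvd and Scd1 had the largest at 21.3%, 20.8% and 20.7%. Together the 31 genes took 0.405% to 0.505% of each library's counts, and total depth ran from 12159941 to 18322559 counts.

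**Figure D1:**
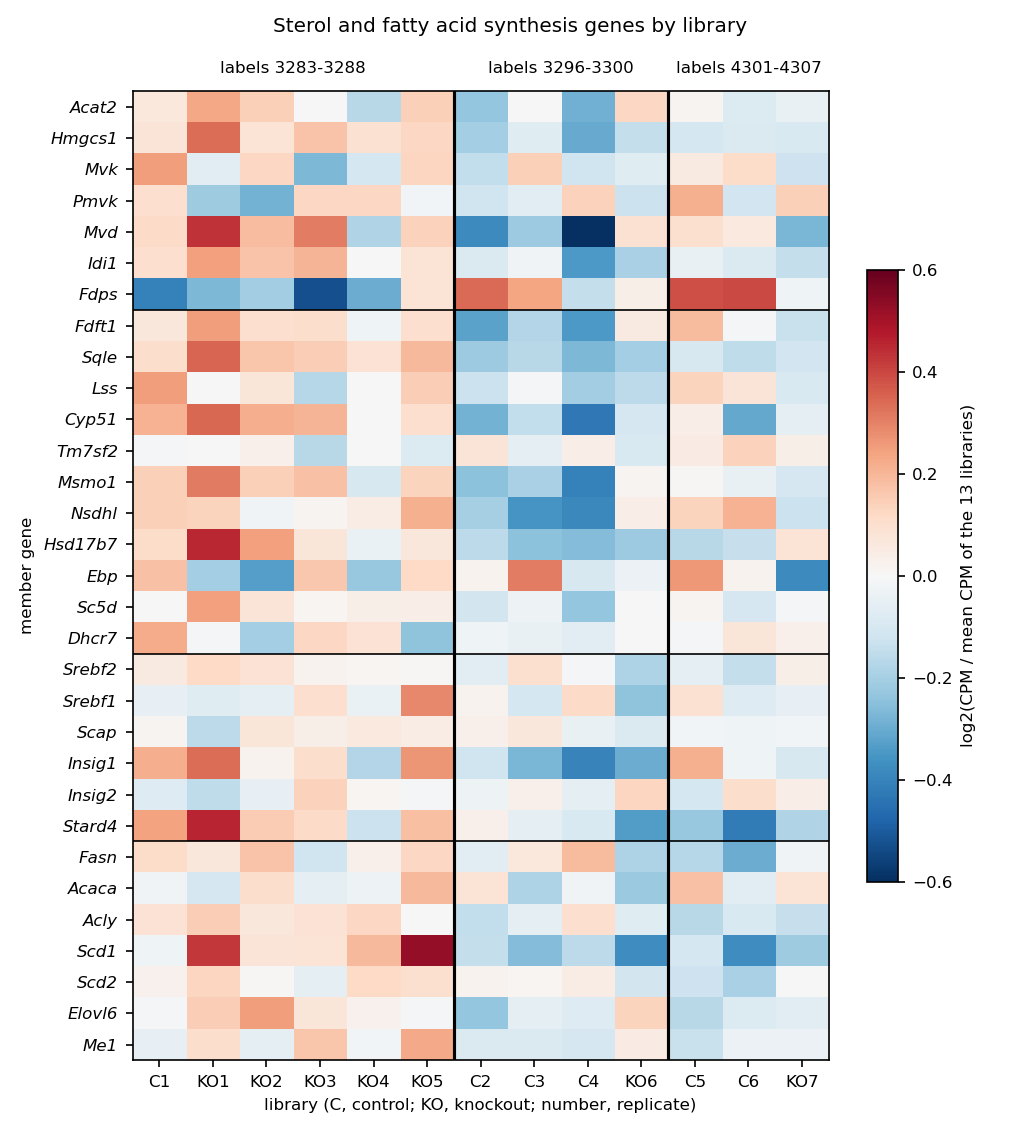
Level of each of the 31 genes (rows, grouped by role with black lines) in each of the 13 libraries (columns, grouped by run of label numbers), as log2 of CPM over the gene's mean CPM. Values past the ends of the colour scale take the end colour. Warm colours gather in the run 3283-3288, which held the highest library for 26 of the 31 genes, and cold colours in the run 3296-3300, which held the lowest for 17.

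Most of these genes stood higher in the run 3283-3288 than in the other runs. The members' median log2 deviation from their mean over the libraries was 0.093 in its single control and 0.005 to 0.146 in its knockouts. In the other runs it was -0.108 to 0.021, so knockout replicate 4, at 0.005, lay below control replicate 5, at 0.021. The highest of the 13 libraries lay in the run 3283-3288 for 26 of 31 members, against 41.8% of all genes tested. Knockout replicate 1, the library with the lowest depth, alone held the highest value of 15 members. Without that library the highest still lay in the run 3283-3288 for 24 of 31 members, against 38.5% of all genes. The lowest library lay in the run 3296-3300 for 17 of 31 members, against 31% of all genes, and control replicate 4 held 13 of these. Control replicate 4 had 12183608 counts, a depth near the 12159941 of knockout replicate 1. The members' share of all counts was 0.461% to 0.505% in the 6 libraries of the run 3283-3288 and 0.405% to 0.437% in the other 7, without overlap.

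Squalene epoxidase, the product of Sqle, carries out the first oxygenation step of sterol synthesis and is one of its slow steps. Its level in the run 3283-3288 was 132 CPM at the lowest, 138 at the median and 158 at the highest (TMM-scaled, n = 6). The run's single control stood at 134 CPM, within the range of the 5 knockouts. In the run 3296-3300 the 3 controls stood at 106, 111 and 103 CPM and the knockout at 108. The run 4301-4307 had a knockout at 115 CPM and controls at 116 and 112. Every library of the first run thus lay above every library of the other 2 runs, while knockouts and controls of 1 run lay together. Between the runs, with genotype as a term in edgeR's quasi-likelihood fit, Sqle ranked 5th of 17549 genes by p (edgeR adjusted p = 0.092). The adjusted p in DESeq2's likelihood ratio test was 4.4e-05.

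The other mevalonate and sterol enzymes are read against the whole table. In edgeR's test for any difference between runs, none of the 31 members and none of all genes passed an adjusted p of 0.05 (Benjamini-Hochberg, 0% of genes). At an unadjusted p under 0.05 there were 14 of 31 members, against 12.7% of all genes. DESeq2 called 7 members with an adjusted p under 0.05, against 2.96% of the 9043 genes for which it gave an adjusted p. It gave none for 4 members. These 7 were Sqle, Hmgcs1, Insig1, Scd1, Cyp51, Stard4 and Acly. Hmgcs1, Sqle and Insig1 were called by DESeq2 in each of 13 refits that left out 1 library. Single refits called 0.372% to 10.7% of genes with an adjusted p. The share of all genes called in every refit was not computed, and the refits had most libraries in common. The count of called members was 4 without control replicate 1, the lone control of its run, against 1.42% of all genes, and 10 without knockout replicate 7, the lone knockout of its run, against 10.7%. In edgeR the 14 members at an unadjusted p under 0.05 became 8 without control replicate 1, against 10.9% of all genes.

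Hmgcs1 stood at 398 CPM at the lowest, 407 at the median and 476 at the highest in the run 3283-3288. The controls of the run 3296-3300 stood at 328, 358 and 306 CPM and its knockout at 341. In the run 4301-4307 the knockout stood at 355 CPM and the controls at 351 and 356. The lone control of the first run had the run's lowest value, 398 CPM, and still lay above the 7 libraries of the other runs. DESeq2 gave an adjusted p of 0.0048 for any difference between runs, and edgeR an adjusted p of 0.197.

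Idi1, which interconverts the isoprenoid building blocks, followed the same order at lower levels. It ran from 32.8 to 39 CPM in the run 3283-3288, with a median of 36.1 CPM. The run 3296-3300 had controls at 30.9, 32.4 and 25.9 CPM and a knockout at 28.7. The run 4301-4307 had a knockout at 29.8 CPM and controls at 31.8 and 31. The first run lay above the others, with 32.8 CPM in its lowest library against 32.4 in the highest of the others, and the DESeq2 adjusted p was 0.077.

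Cyp51, the lanosterol demethylase, ran from 96.5 to 123 CPM in the run 3283-3288 (median 112). Its 4 values in the run 3296-3300 were 79.4, 87.2 and 71.9 CPM in controls and 90.2 in the knockout. In the run 4301-4307 the knockout stood at 93 CPM and the controls at 99.4 and 78.2, so this run overlapped the first. DESeq2 called Cyp51 for any difference between runs (adjusted p = 0.018).

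Fdft1, squalene synthase, which commits farnesyl diphosphate to sterols, ran from 98.6 to 119.6 CPM in the run 3283-3288 (median 108). It stood at 80.5, 89.1 and 79.2 CPM in the controls of the run 3296-3300 and at 104 in the knockout. The run 4301-4307 had the knockout at 91.7 CPM and controls at 115 and 100.2. The controls and the knockout were ordered in opposite ways in these 2 runs. Its adjusted p for any difference between runs was 0.342 in edgeR and 0.151 in DESeq2.

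**Figure D2:**
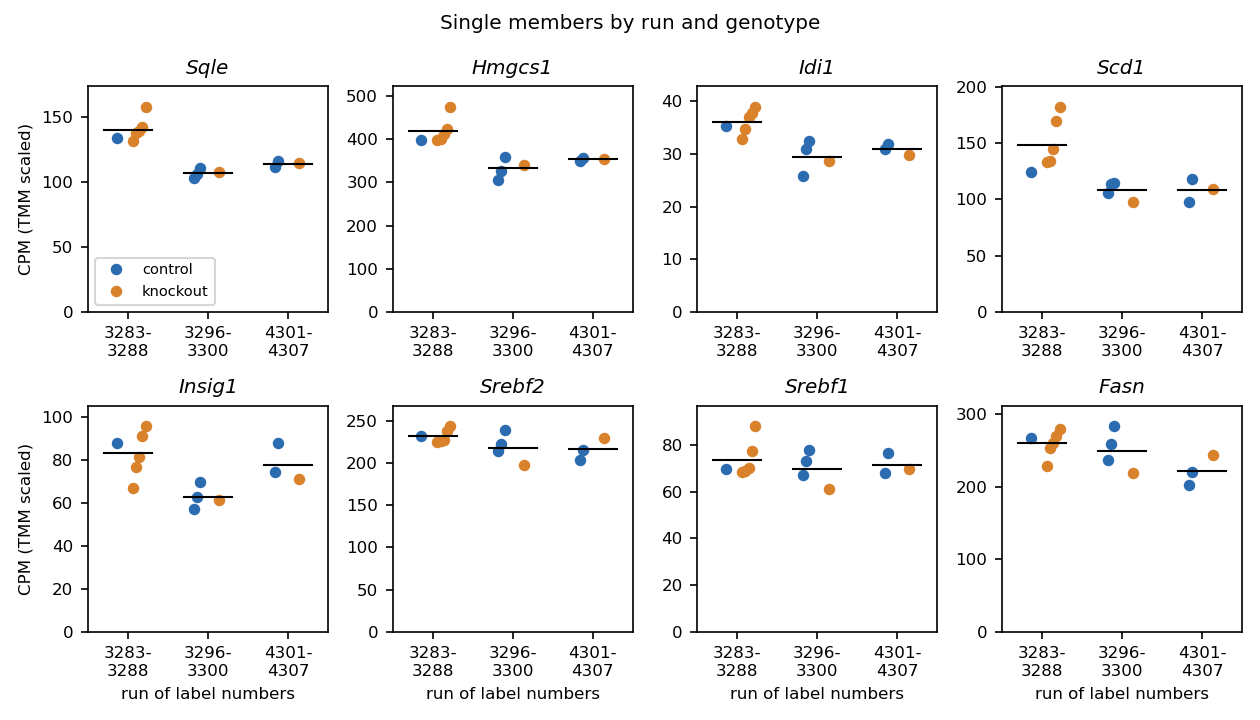
CPM (TMM-scaled, vertical axis from 0) of 8 genes in each library, by run of label numbers (horizontal axis). Points are libraries, blue for control and orange for knockout, and bars are run means. Sqle, Hmgcs1, Idi1 and Scd1 lie higher in every library of the run 3283-3288 than in any other library, while Srebf2, Srebf1 and Fasn overlap.

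From the run 3283-3288 to the run 3296-3300, 29 of 31 members had a fitted difference below 0 in edgeR with genotype as a term, against 49.5% of all genes. The median log2 difference was -0.12 over the members and 0.002 over all genes. At an unadjusted p under 0.05 there were 14 members, against 6.58% of all genes. All 14 were lower and none higher, against 3.04% and 3.54% of all genes. None passed the adjusted p in edgeR (0% of all genes), and 4 did in DESeq2, against 0.155% of all genes. Sqle had the smallest p of all 17549 genes in edgeR, with a log2 difference of -0.37 (SE 0.059, adjusted p = 0.187). The DESeq2 adjusted p-values were 1.4e-04 for Sqle, 0.012 for both Hmgcs1 and Insig1, and 0.047 for Cyp51.

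By role, the sterol enzymes had a median log2 difference of -0.27 and all 11 lay below 0. Examples with the smallest p were Sqle, Cyp51 at -0.38 (SE 0.09), Msmo1, a C4-methyl sterol oxidase, at -0.29 (SE 0.085), and Lss, lanosterol synthase, at -0.27 (SE 0.08). The mevalonate enzymes had a median of -0.16, with 6 of 7 below 0. Hmgcs1 lay at -0.30 (SE 0.066), Idi1 at -0.30 (SE 0.085) and Mvd, which forms isopentenyl diphosphate, at -0.40 (SE 0.17). Fdps was the exception at 0.32 (SE 0.18). The regulators had a median of -0.11, with 5 of 6 below 0, and the fatty acid enzymes one of -0.08, with 7 of 7 below 0. No member other than Fdps and Insig2, at 0.09 (SE 0.068), lay above 0. Without knockout replicate 6, the lone knockout of its run, 23 of 31 lay below 0 and the median was -0.18.

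Separation without overlap was found for 7 members, which stood higher in all 6 libraries of the run 3283-3288 than in all 4 of the run 3296-3300, against 1.03% of all genes, and none stood lower in all 6, against 1.54%. These were Hmgcs1, Idi1, Sqle, Cyp51, Hsd17b7, Sc5d and Scd1. Hsd17b7 is a sterol ketoreductase, and Sc5d a sterol desaturase late in the pathway. All 6 libraries of the run 3283-3288 stood above all 3 of the run 4301-4307 for Hmgcs1, Idi1, Sqle, Stard4, Acly, Scd1 and Elovl6, 7 members, against 3.24% of all genes. Lying above every library of both other runs was true of Hmgcs1, Idi1, Sqle and Scd1, 4 of 31, against 0.279% of all genes. No member lay below every library of both other runs, against 0.558% of all genes.

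From the run 3283-3288 to the run 4301-4307, 26 of 31 members lay below 0, against 51% of all genes, with a median log2 difference of -0.11 beside -0.005 for all genes. At an unadjusted p under 0.05 there were 10 members, against 14% of all genes, and 9 of them were lower, against 6.4%. None passed the adjusted p in edgeR, against 0.0855% of all genes, and 5 did in DESeq2, against 4.81%. Those 5 were Sqle at -0.28, Stard4 at -0.50, Scd1 at -0.43, Acly at -0.23 and Hmgcs1 at -0.22, as DESeq2 log2 differences. Fdps was the 1 member at an unadjusted p under 0.05 that was higher (7.64% of all genes), at 0.46 in edgeR (SE 0.19, adjusted p = 0.300). Tm7sf2, a sterol reductase, had the opposite order to most, with all 3 libraries of the run 4301-4307 above all 6 of the first run (4.71% of all genes), though the nearest libraries stood at 19.19 and 19.18 CPM. Without knockout replicate 7 the median was -0.07 and edgeR called Fasn (log2 difference -0.42, adjusted p = 0.047), 1 of 31 members against 2.32% of all genes in that fit. Without control replicate 6 the members at an unadjusted p under 0.05 numbered 6, against 9.76% of all genes.

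The roles were ordered otherwise in this comparison. The fatty acid enzymes had a median log2 difference of -0.15, the regulators one of -0.10, and the mevalonate and sterol enzymes one of -0.09 each. From the run 3296-3300 to the run 4301-4307, the sterol enzymes had a median of 0.13 with 10 of 11 above 0, and the mevalonate enzymes one of 0.08 with 7 of 7 above 0. The fatty acid enzymes had a median of -0.06 with 6 of 7 below 0. Whether the roles differ in this was not tested. Fdft1, Lss, Nsdhl and Insig1 were the 4 members at an unadjusted p under 0.05, all higher, against 12% of all genes and 5.51% that were higher, and none passed the adjusted p in edgeR (0% of all genes) or DESeq2 (1.46%). That count was 0 without control replicate 5, against 6.89% of all genes, and 8 without knockout replicate 6, against 17.1%. It was 1 without control replicate 4, against 8.74%, 2 without control replicate 3, against 9.56%, and 7 without knockout replicate 7, against 18.1%.

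**Figure D3:**
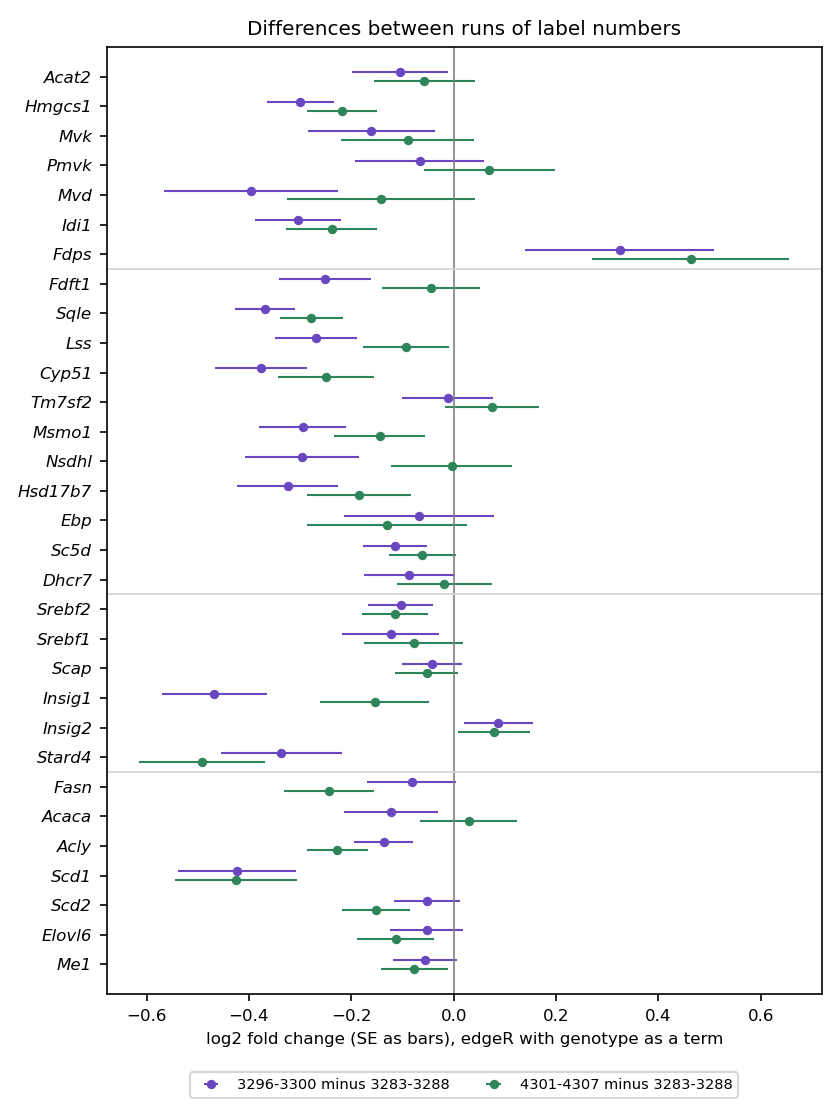
Log2 difference of each gene from the run 3283-3288, in edgeR with genotype as a term (points, with SE as bars), for the run 3296-3300 in purple and the run 4301-4307 in green. Most points lie left of 0, with medians of -0.12 and -0.11, and Fdps lies to the right in both comparisons.

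Insig1, whose protein retains SCAP in the endoplasmic reticulum and whose gene is itself an SREBP target, ran from 67 to 95.6 CPM in the run 3283-3288 (median 84.7). Its controls in the run 3296-3300 stood at 69.7, 62.5 and 57.2 CPM and the knockout at 61.5. In the run 4301-4307 the knockout stood at 70.8 CPM and the controls at 87.7 and 74.4. All 3 of these lay above all 4 of the run 3296-3300, as also for Sqle (2 members, against 4.36% of all genes), but they overlapped the run 3283-3288. The log2 difference from the run 3283-3288 to the run 3296-3300 was -0.47 (SE 0.10, edgeR adjusted p = 0.420).

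Stard4, a cholesterol carrier of the cytosol and an SREBP-2 target, ran from 24.1 to 36.1 CPM in the run 3283-3288 (median 29.6). It stood at 26.9, 25.3 and 24.7 CPM in the controls of the run 3296-3300 and at 20.9 in the knockout. In the run 4301-4307 the knockout stood at 23.2 CPM and the controls at 22.5 and 19.7. Only the last run lay wholly below the first.

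The SREBP genes themselves and Scap differed less between runs than Insig1 and Stard4. Srebf2 ran from 203 to 239.6 CPM in controls (median 219.6) and from 197 to 244 CPM in knockouts (median 227). Srebf1 ran from 67.1 to 78 CPM in controls (median 71.4) and from 61 to 88.1 CPM in knockouts (median 69.7). The groups overlapped in both. Between runs the smallest unadjusted p in edgeR's pairwise tests was 0.096 for Srebf2 (adjusted p = 0.450) and 0.208 for Srebf1 (adjusted p = 0.827). Messenger RNA of these factors does not show how much is cleaved. The log2 difference from the run 3283-3288 to the run 3296-3300 was -0.10 (SE 0.063) for Srebf2, -0.12 (SE 0.094) for Srebf1 and -0.04 (SE 0.06) for Scap. The median over all members there was -0.12, so Srebf2 and Srebf1 lay near it.

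Of the fatty acid enzymes, Scd1, a desaturase related to Scd2, differed most between runs. It ran from 124 to 182 CPM in the run 3283-3288 (median 139), and the lone control had the lowest of these values. The run 3296-3300 had controls at 115, 106 and 113 CPM and a knockout at 97.8. The run 4301-4307 had a knockout at 109 CPM and controls at 118 and 97.7. Its log2 difference from the first run was -0.42 (SE 0.12) to the run 3296-3300 and -0.43 (SE 0.12) to the run 4301-4307.

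Acly ran from 228 to 253 CPM in the run 3283-3288 (median 243). Its values were 206, 220, 245 and 217 CPM in the run 3296-3300, where 1 control reached the first run's range. In the run 4301-4307 they were 208 CPM in the knockout and 203 and 214 CPM in the controls, all below the first run. Scd2, the member with the most counts, ran from 1739 to 1979 CPM in the run 3283-3288 (median 1889), from 1678 to 1865 CPM in the run 3296-3300 and from 1582 to 1809 CPM in the run 4301-4307. These runs overlapped. Fasn, fatty acid synthase, ran from 228 to 279 CPM in the run 3283-3288 (median 264), from 218 to 283 CPM in the run 3296-3300 and from 201.7 to 244 CPM in the run 4301-4307, also with overlap. Acaca, which makes malonyl-CoA, had unadjusted p-values of 0.122 or more in every comparison of runs in edgeR.

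Knockout against control is read first at Lpcat3, the targeted gene. It stood at 24.7 to 30.3 CPM in the 6 controls (median 28.2) and at 17.3 to 24.4 CPM in the 7 knockouts (median 18.9), without overlap. Its log2 fold change of -0.45 (SE 0.088) had adjusted p-values of 0.096 (edgeR) and 0.0021 (DESeq2). With the runs as a term it was -0.35 (SE 0.098, edgeR adjusted p = 0.489).

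None of the 31 synthesis genes passed an adjusted p of 0.05 between genotypes in edgeR, against 4 of all genes tested (0.0228%), and none did in DESeq2, against 1.32%. At an unadjusted p under 0.05 edgeR had 11 members, against 12.5% of all genes. Of these 9 were higher in knockouts, against 5.23%, and 2 lower, against 7.25%. Over the members 22 of 31 lay above 0, against 48.7% of all genes, and the median log2 fold change was 0.083, beside -0.004 for all genes. No member separated the genotypes without overlap, against 0.171% of all genes with knockouts higher and 0.274% with controls higher.

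A fit with the runs as a term gave lower values for most members. With that term the members' median was -0.017, and 15 lay above 0, against 48.9% of all genes, with 16 below. None passed the adjusted p in edgeR, against 0.0171% of all genes, and 3 had an unadjusted p under 0.05, against 8.55%. Within runs the median difference between knockouts and controls over the members was 0.008 in the run 3283-3288, -0.034 in the run 3296-3300 and 0.006 in the run 4301-4307, on the log2 CPM scale. There 16, 14 and 16 of the 31 members lay above 0, against 46.9%, 50.5% and 49.8% of all genes. Each of these within-run values rests on a single library of 1 genotype. Without control replicate 1 the median over all runs was 0.149, and without knockout replicate 1 it was 0.055.

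Sqle shows this at 1 gene. Over all libraries it ran from 103 to 134 CPM in controls (median 111) and from 108 to 158 CPM in knockouts (median 138), a log2 fold change of 0.23 (SE 0.078, edgeR adjusted p = 0.252). With the runs as a term it was 0.04 (SE 0.052, adjusted p = 0.857). Hmgcs1 went from 0.20 (SE 0.071) to 0.05 (SE 0.058), and Scd1 from 0.30 (SE 0.11) to 0.05 (SE 0.10). Insig1 stood at 0.08 (SE 0.11) without the term and at -0.11 (SE 0.09) with it.

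Elovl6 and Me1 moved less when the runs entered. Elovl6, which elongates palmitate, ran from 47.4 to 55.3 CPM in controls (median 52.7) and from 53.2 to 66.2 CPM in knockouts (median 58.5). The groups overlapped narrowly. Its log2 fold change was 0.18 (SE 0.056, edgeR adjusted p = 0.198), the smallest p among the members, and 0.14 (SE 0.064, adjusted p = 0.558) with the runs as a term. Me1 ran from 120.5 to 129 CPM in controls (median 124) and from 127 to 154 CPM in knockouts (median 137). Its log2 fold change was 0.15 (SE 0.048, edgeR adjusted p = 0.225), and 0.11 (SE 0.056, adjusted p = 0.607) with the runs as a term. Within each of the 3 runs knockouts were higher on average for these 2 and for Hmgcs1, Sqle, Hsd17b7, Sc5d and Insig2, 7 of 31 members, against 13.6% of all genes. Knockouts were lower within each run for Mvk, Lss, Tm7sf2, Ebp, Insig1 and Acly, 6 members, against 14.7% of all genes. Relabelling within runs gave exact two-sided permutation p-values of 0.056 for Elovl6 and 0.083 for Me1. In the lower direction the exact permutation p was 0.056 for Lss, 0.069 for Mvk and 0.083 for Ebp, where 0.014 is the smallest that 72 relabellings allow.

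Ebp, a sterol isomerase, and Fdps were the 2 members lower in knockouts at an unadjusted p under 0.05. Ebp had a log2 fold change of -0.24 (SE 0.11, edgeR adjusted p = 0.369), and -0.29 (SE 0.13, adjusted p = 0.570) with the runs as a term. Fdps had one of -0.33 (SE 0.15, adjusted p = 0.377), and -0.11 (SE 0.17, adjusted p = 0.867) with the runs as a term. With the runs as a term, Ebp, Lss and Elovl6 were the 3 members at an unadjusted p under 0.05, the first 2 lower and Elovl6 higher, against 4.54% and 4.02% of all genes.

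By role, all 7 fatty acid enzymes lay above 0 between genotypes with no run term, with a median of 0.076. Scd2 had a log2 fold change of 0.06 (SE 0.053), Fasn of 0.03 (SE 0.074), and Acaca lay near 0. With the runs as a term their median was 0.018 and 4 of 7 lay above 0. The sterol enzymes had a median of 0.132 with 7 of 11 above 0, and of 0.039 with 7 of 11 above 0 once the runs entered. The mevalonate enzymes had a median of 0.132 with 4 of 7 above 0, and of -0.025 with 3 of 7 above 0 once the runs entered. For the regulators the median went from 0.038 with 4 of 6 above 0 to -0.049 with 1 of 6 above 0.

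**Figure D4:**
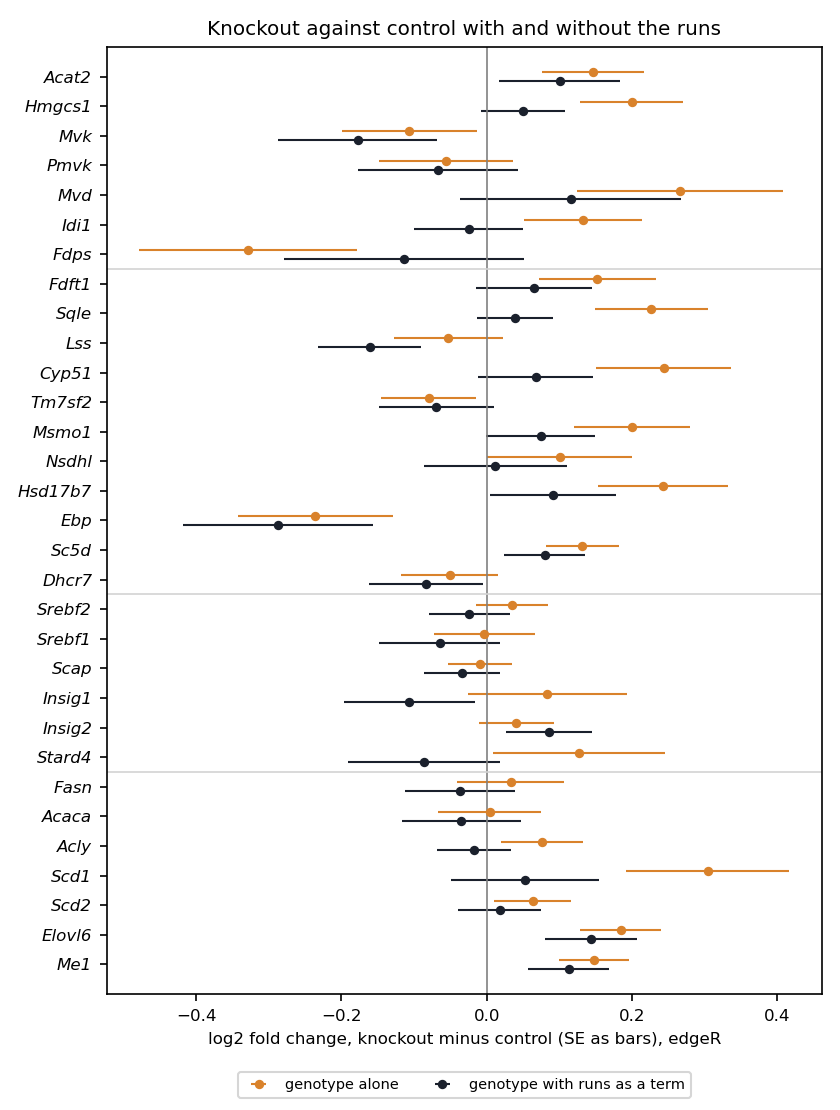
Log2 fold change of each gene between knockout and control in edgeR (points, with SE as bars), with genotype alone in orange and with the runs as a term in black. The members' median lies at 0.083 with genotype alone and at -0.017 with the runs as a term, and Elovl6 and Me1 stay right of 0.

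A test of whether the knockout difference itself varied between runs called no member in edgeR after adjustment (0% of all genes) or in DESeq2 (0.252%). At an unadjusted p under 0.05 edgeR had Fdft1, Nsdhl, Fasn and Srebf2, 4 of 31, against 7.28% of all genes. Fdft1 had the smallest p of these in edgeR. Its knockout stood above all 3 controls in the run 3296-3300 and below both in the run 4301-4307.

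Wider lists of the same pathways gave the background of related genes. Of 33 other sterol genes (synthesis, uptake, efflux and esterification), 32 were tested, and of 38 other fatty acid genes, 37. None of either list passed the adjusted p in edgeR in any of these comparisons. From the run 3283-3288 to the run 3296-3300 the other sterol genes had 26 of 32 below 0 with a median log2 difference of -0.06, and the other fatty acid genes 22 of 37 with a median of -0.02. Between genotypes their medians were 0.023 and -0.039. For any difference between runs, 8 of 32 and 5 of 37 had an unadjusted p under 0.05, against the same 12.7% of all genes. DESeq2 called 3 and 1 of them there, against 2.96% of all genes.

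Cell type markers were summed beside these results, as CPM without TMM scaling. All 8 excitatory neuron markers were counted in every library, at 4416 to 5230 CPM in sum, matching the labelled tissue. All 10 choroid plexus markers were counted too, at 67.6 to 3210 CPM in the run 3283-3288, 86.1 to 1862 in the run 3296-3300 and 115.7 to 1949 in the run 4301-4307. The range was thus wide within every run. With the choroid plexus score as a covariate, the members' median log2 difference from the first to the second run was -0.170. All 12 astrocyte markers were counted in every library, and their summed level was 5980 to 6474 CPM in the run 3283-3288, 6442 to 6687 in the run 3296-3300 and 6348 to 6643 in the run 4301-4307. Astrocyte markers were thus mostly lower where the synthesis genes were higher, though the ranges overlapped. The part of astrocyte content in the run differences was not tested. With the astrocyte score as a covariate, the members' median log2 difference from the first to the second run was -0.185. There 27 of 31 members lay below 0, against 29 without the score. From the first run to the run 4301-4307, 21 of 31 lay below 0 with the score, against 26 without it. All 17 oligodendrocyte and myelin markers were counted, at 7469 to 13870, 7993 to 11030 and 9281 to 13220 CPM in the 3 runs in the same order, with wide overlap. With that score as a covariate edgeR called Sqle (adjusted p = 0.023), Scd1 (adjusted p = 0.024) and Insig1 (adjusted p = 0.024) for any difference between runs, 3 of 31 members against 0.741% of all genes. All 12 microglial markers were counted, at 842 to 959, 947 to 986 and 983 to 1023 CPM, and the part of microglial content in the run differences was not tested.

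The sequences of some members limit what counting can separate. In GENCODE M21 transcripts, 47.4% of the 75-base windows of Acaca, 40.7% of Acat2, 29.1% of Idi1, 25.4% of Fdft1, 23.1% of Me1 and 12.2% of Hmgcs1 also occur in another annotated gene on either strand, many of them predicted genes. How reads shared between such genes were counted is not given in the sources used here, so these levels are uncertain. Fdps shares 9.24% of its windows with 3 predicted genes. Sqle shares none.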

How the data were processed

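The authors deposited a gene-level table of raw read counts, whole numbers and not normalized, for the 13 libraries. Per the labels' protocols, total RNA went into the SMART-Seq mRNA LP kit. The build GRCm39 and the tools featureCounts 2.0.3, STAR 2.7.10a, DESeq2 1.36.0 and R 4.2.0 come from the submitters' processing notes, with no roles. Which annotation was counted, whether strand was used and how multimapped reads were handled is not given in the sources used here. Columns were matched to samples by the number in the sample title.

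Counts were tested in R 4.3.3 with edgeR 4.0.16 (quasi-likelihood F-test after filterByExpr by group and TMM scaling), with Benjamini-Hochberg adjustment over all 17549 genes tested and a threshold of 0.05. Genotype was tested alone, and runs were tested with genotype as a term. SE is the log2 fold change divided by the square root of F. DESeq2 1.42.0 was an alternative (likelihood ratio test for any run difference), and it gives no adjusted p for genes it filters. CPM are TMM-scaled. Log2 CPM for within-run differences and permutation tests used a prior count of 2.

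Other alternatives were median-of-ratios size factors, a mean count of 50 or more, no count filter, myelin and choroid plexus scores as covariates, removal of length and GC trends, the runs as a term, no genotype term, no libraries 4301-4307 and leaving out each library. Astrocyte, and septum and striatum, scores as covariates, and DESeq2's run test without each library, were chosen after seeing the data.

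The members and gene lists were chosen with earlier results of these data known. By rule, values are given for 10 members whatever their result (Hmgcs1, Idi1, Fdft1, Sqle, Srebf2, Srebf1, Insig1, Fasn, Scd1, Scd2) and for members past the threshold in any fit, with up to 4 others per role by smallest p, and Lpcat3 as the target. Tm7sf2, Acaca, Insig2 and the members named for their sign within runs were singled out after their values were seen. Genes were matched to GENCODE M21 (GRCm38), an older build than the counts. Promoters are from the RefSeq table.

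The fits were checked on simulated counts, with spread taken from a fit that held the runs as a term. The genotype simulation held no run differences, so its recovery may be higher than in these data. For knockout against control (17329 genes) 48% of genes changed by 0.32 on the log2 scale and 72% of those changed 1.5-fold were recovered, with 3.21% false calls. For any run difference (17356 genes) these were 20% and 64%, with 4.51% false calls.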

Additional observations from a re-analysis of the deposited data

Results flagged for a closer look

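In 62 groups of 6 or 7 libraries (31 members in controls and in knockouts), 3 had a library far from the others by Dixon's test, which chance gives in about 1 of 20 groups. Hsd17b7 stood at 37.4 CPM in control replicate 1, with the next control at 31.5, and this is the lone control of the run 3283-3288. Sc5d stood at 149 CPM in knockout replicate 1, with the next knockout at 133. Srebf2 stood at 197 CPM in knockout replicate 6, the lone knockout of the run 3296-3300, with the next knockout at 226.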

How the results depend on the processing

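No paired analysis was possible because the labels give the groups no shared number. Between genotypes, the runs as a term left 3 members at an unadjusted p under 0.05 and a median of -0.017, with 7 members of the other sign, and DESeq2 called 1 other fatty acid gene (1.32% of all genes). For any run difference, members past the adjusted p numbered 7 in DESeq2 (2.96% of all genes), 8 with no count filter (1.88%), 3 with the myelin score (0.741%), 1 with the choroid plexus score (0.444%) and 2 with no genotype term (0.194%). Other sterol genes there numbered 3, 4, 1, 1 and 1 in the same order, and other fatty acid genes 1 in DESeq2, 4 with no filter and 4 with the myelin score. From the run 3283-3288 to 3296-3300, members numbered 4 in DESeq2 (0.155%), 7 with no filter (0.923%) and 1 with no genotype term (0.0057%), other sterol genes 2 in DESeq2 and 3 with no filter, and other fatty acid genes 4 with no filter. The median there was -0.170 with the choroid plexus score and -0.185 with the astrocyte score. From 3283-3288 to 4301-4307, members numbered 5 in DESeq2 (4.81%), 4 with no filter (1.07%), 1 with the myelin score (1.29%), 4 with the choroid plexus score (1.58%) and 1 with no genotype term (0.49%). Other sterol genes there numbered 4, 4, 1 and 2 under the first 4 of these, and other fatty acid genes 2 with no filter and 3 with the myelin score. In the same comparison the astrocyte score left 21 of 31 members below 0, with 5 members of the other sign. From 3296-3300 to 4301-4307, no filter called 1 member and 1 other fatty acid gene (1.08%), and members at an unadjusted p under 0.05 numbered 0 with the myelin score (9.99%), 2 with the choroid plexus score (10.6%) and 1 with the septum and striatum score (8.3%). The cause was not tested.

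Leaving out each library gave 8 to 13 members at an unadjusted p under 0.05 between genotypes, against 10.1% to 15.1% of all genes. The members' median was 0.055 to 0.149. Past the adjusted p there were 0 to 1 other fatty acid genes, against 0.0169% to 0.451% of all genes. For any run difference the members were 8 to 18, against 8.41% to 17.2% of all genes. Past DESeq2's adjusted p they were 4 to 10, against 0.372% to 10.7% of genes with an adjusted p. From 3283-3288 to 3296-3300 the members at an unadjusted p under 0.05 were 10 to 15, against 5.01% to 7.79% of all genes. Their median there, over all members, was -0.182 to -0.112. From 3283-3288 to 4301-4307 the members at an unadjusted p under 0.05 were 6 to 12, against 9.76% to 18.8% of all genes. The median was -0.122 to -0.066, and without knockout replicate 7 there were 7 members of the other sign. In this comparison 0 to 1 members, 0 to 2 other sterol genes and 0 to 1 other fatty acid genes passed the adjusted p. The share of all genes past it was 0% to 2.32%. From 3296-3300 to 4301-4307 the members at an unadjusted p under 0.05 were 0 to 8, against 6.89% to 18.1% of all genes. The median was 0.045 to 0.088. Counts of single libraries were as low as 41 (Fdps), and DESeq2 gave no adjusted p for 4 members for any run difference and for 6 from 3283-3288 to 4301-4307.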
